A study of Nematostella vectensis with 10 samples.

Results

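Nematogalectin (*Ngal*, NV2.5200), *ggt* (NV2.1925), *dkk3-like3* (NV2.10134) and *CALM3-like* (NV2.20419) are non-collagen effector genes on the study's list of published cnidocyte genes in the sea anemone *Nematostella vectensis*. The list also holds genes with toxin names and others, which are described by class below. They are 4 of the 24520 genes quantified. Each was taken by its gene number in the identifiers of the quantification files, and each is represented there by a single transcript. The study's own list marks all 4 as regulated by the zinc finger gene *Nvznf845* from a knockdown in these same samples, so their direction is not independent evidence here.

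Wild-type embryos at gastrula stage, 28 hours post fertilization, were compared after injection of an *Nvznf845* shRNA (5 libraries) or, as the control, an RNA that the labels call scramble RNA and the methods a control shRNA (5 libraries). Each library was poly(A) RNA of about 1000 whole embryos, so it holds cnidocytes mixed with every other cell of the gastrula. The targeted gene was knocked down with 1 shRNA, injected before first cleavage. Replicate numbers pair a knockdown with a control library of the same labelled batch, and replicates 4 and 5 share the batch LA48. In such bulk samples, fewer cells of a type and less RNA per cell cannot be told apart.

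Cnidocytes are the stinging cells of cnidarians. Each builds a capsule, the cnidocyst, in a Golgi-derived vesicle, and in nematocytes the capsule holds a coiled tubule that is everted at high speed on discharge. The capsule wall is made of minicollagens and other secreted proteins that become crosslinked by disulfide bonds, and in *Hydra* the matrix inside holds poly-γ-glutamate, which raises the osmotic pressure that drives discharge. Nematogalectin, known from *Hydra*, is a protein of the nematocyst tubule with a collagen-like stretch and a galactose-binding lectin domain. The name *ggt* is the usual one for γ-glutamyltransferase, an enzyme that removes or transfers γ-glutamyl groups, such as that of glutathione. *dkk3-like3* is named after Dickkopf-3, a secreted cysteine-rich protein, and a gene of this family is expressed in differentiating nematocytes of *Hydra*. *CALM3-like* is named after a gene for calmodulin, the calcium-binding regulator found in all eukaryotic cells.

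Each knockdown library held 20848941 to 35960095 estimated counts and each control library 18891111 to 49293261. Both libraries of pair 3 stood apart, since 10 genes took 67.4% of the counts in the knockdown library and 56.0% in the control library of that pair. The targeted gene *znf845* averaged 10.4 ± 2.42 CPM in knockdown libraries and 56.3 ± 3.49 CPM in control libraries (SD, n = 5 each), where CPM are counts relative to the TMM-scaled library size, and its level was lower in 5 of 5 pairs. By pair, 18.4%, 22.7%, 11.5%, 22.1% and 18.5% of its control level was left. The cnidocyst collagen gene *ncol3*, a defining cnidocyte marker, averaged 69.2 TPM (a level per transcript length) in knockdown libraries and 1152 TPM in control libraries, so cnidocyte transcripts were well represented in the control gastrulae.

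All 4 effector genes were lower in *Nvznf845* knockdown embryos. *ggt*, *dkk3-like3* and *Ngal* kept between 2.48% and 5.12% of their control level, whereas *CALM3-like* kept 43.3%. A gene was called lower at an adjusted p of 0.05 or less and a fall of at least 1.5-fold in edgeR's quasi-likelihood test over 19001 tested genes. By this rule 4 of 4 effector genes were called, against a background of 803 of 19001 genes, or 4.23%. Their median log2 fold change was -4.36, and that of all tested genes was 0.0099. In TMM-scaled CPM, the knockdown and control libraries did not overlap for any of the 4 genes. In the deposited TPM this held for *Ngal*, *ggt* and *dkk3-like3* but not for *CALM3-like*. On either scale, the share of all tested genes without overlap was not counted, so this is a description of these genes alone.

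*Ngal*, the tubule protein gene, had 12.3, 11.9, 11.2, 11.6 and 8.59 CPM in knockdown libraries 1 to 5, against 277, 277, 130, 188 and 213 CPM in control libraries 1 to 5. The lowest control library was still 10.6 times the highest knockdown library, and control library 3 was the low one among the controls. Summed over libraries, 1454 counts were assigned to *Ngal* in the knockdown and 31542 in the control. The means were 11.1 ± 1.47 CPM in the knockdown and 217 ± 62.6 CPM in the control (SD, n = 5 each). The log2 fold change was -4.29 (SE 0.22, 95% interval -4.78 to -3.80, edgeR adjusted p = 8.12e-08), which placed *Ngal* at 299 of the 803 genes called lower when these were ranked by size of the fall.

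*ggt*, by its name the γ-glutamyltransferase gene, had 4.34, 3.83, 4.35, 3.61 and 4.49 CPM in knockdown libraries, against 190, 227, 120, 140 and 155 CPM in control libraries. Knockdown libraries were close to one another, with a coefficient of variation of 9.28%, and the groups were separated by a gap of 26.7-fold. The means were 4.12 ± 0.383 CPM in the knockdown and 166 ± 42.7 CPM in the control (SD, n = 5 each), from 553 and 24082 summed counts. *ggt* fell furthest of the 4 genes, with a log2 fold change of -5.33 (SE 0.20, 95% interval -5.77 to -4.90, edgeR adjusted p = 9.38e-09), at 161 of 803 by size of fall.

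*dkk3-like3*, the gene with the Dickkopf-3 name, had 0.482, 0.621, 0.458, 0.368 and 0.321 CPM in knockdown libraries, against 10.7, 11.9, 5.88, 10.3 and 10.03 CPM in control libraries. Control library 3 was again the lowest control, and it stood 9.47-fold above the highest knockdown library. The knockdown values rested on few reads, with 11, 19, 6, 10 and 13 counts in knockdown libraries against 262, 284, 169, 324 and 400 counts in control libraries. The means were 0.450 ± 0.116 CPM in the knockdown and 9.77 ± 2.29 CPM in the control (SD, n = 5 each). The log2 fold change was -4.44 (SE 0.26, 95% interval -5.00 to -3.88, edgeR adjusted p = 1.78e-07), at 277 of 803 by size of fall.

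*CALM3-like*, named after calmodulin, had 2.36, 2.78, 2.521, 3.02 and 2.47 CPM in knockdown libraries, against 6.75, 7.53, 4.56, 5.13 and 6.42 CPM in control libraries. The groups did not overlap in CPM, but the gap between the highest knockdown and the lowest control library was only 1.51-fold. In TPM they did overlap, since knockdown libraries 2, 4 and 5 had 2.60, 2.58 and 2.47 TPM and so lay above control library 3, the lowest of the controls at 2.3 TPM. The means were 2.63 ± 0.266 CPM in the knockdown and 6.08 ± 1.21 CPM in the control (SD, n = 5 each), from 354 and 893 summed counts. The log2 fold change was -1.20 (SE 0.17, 95% interval -1.57 to -0.83, edgeR adjusted p = 4.87e-04), at 691 of 803 by size of fall. The *CALM3-like* call was lost when counts were scaled by library size alone (edgeR adjusted p = 0.201) and when log2(TPM + 1) was tested with limma (adjusted p = 0.0709). In the other alternatives with all libraries, and with any single library or pair left out, it was kept. TPM and library size alone carry no TMM scaling. In control library 3, 10 genes took 56.0% of the counts. The part of that in the TPM overlap and in the lost calls was not tested.

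**Figure D1:**
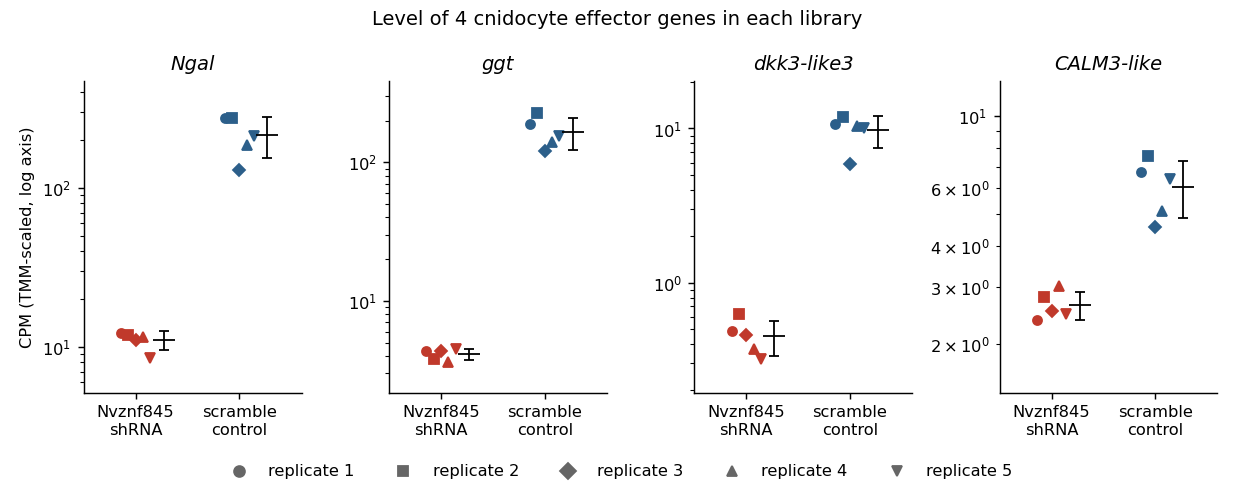
Level of each effector gene in each library, as TMM-scaled CPM on a log axis that differs between panels, with *Nvznf845* shRNA libraries at the left and scramble control libraries at the right of each panel. Marker shapes give the replicate number, and the bars beside the points are the mean and SD of 5 libraries. On this scale the groups are separate in all 4 panels, with a gap of 1.51-fold for *CALM3-like* and 26.7-fold for *ggt*.

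Compared pair by pair, the 4 genes were lower in 5 of 5 pairs. The share of all tested genes that were lower in every pair was not counted. *ggt* had log2 ratios of knockdown over control of -5.45, -5.89, -4.78, -5.27 and -5.11 in pairs 1 to 5. *Ngal* had -4.50, -4.54, -3.55, -4.01 and -4.63, and *dkk3-like3* had -4.47, -4.27, -3.68, -4.81 and -4.97. Pair 3 thus gave the smallest fall for these 3 genes, although the same pair had the least *znf845* left. *CALM3-like* had log2 ratios of -1.51, -1.44, -0.85, -0.76 and -1.38, with the smallest fall in pair 4 and the next smallest in pair 3. Each gene therefore varied between pairs by 0.75 to 1.28 on the log2 scale, which is less than the gap of *CALM3-like* to the other 3 genes in any pair. With 5 pairs, no relation to the amount of *znf845* left was tested.

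Batches LA40, LA42 and LA45 hold 1 pair each, which is the ratio of pairs 1, 2 and 3. Within batch LA48, the only one with 2 pairs, the log2 fold changes were -4.33 for *Ngal*, -5.19 for *ggt*, -4.90 for *dkk3-like3* and -1.09 for *CALM3-like*, and all 4 calls were kept (edgeR, largest adjusted p = 0.0418, for *CALM3-like*). *paxA*, a transcription factor gene of the cnidocyte lineage, had a log2 fold change of -5.74 over all pairs, with 1.79 ± 0.495 CPM in the knockdown and 97.4 ± 11.8 CPM in the control (SD, n = 5 each). From other knockdowns, the study's list also marks *ggt* as regulated by *paxA* and *CALM3-like* as regulated by a forkhead gene. *Ngal* and *dkk3-like3* are marked for *Nvznf845* only.

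**Figure D2:**
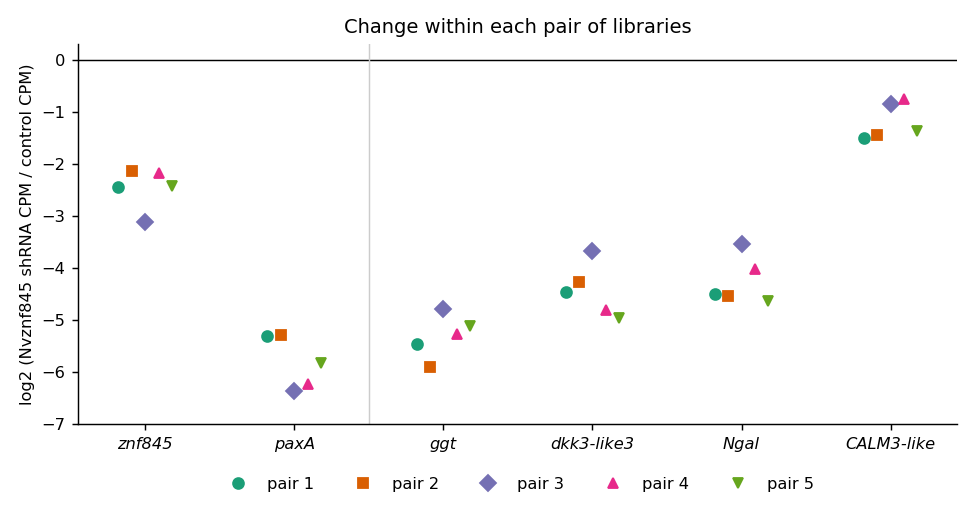
Log2 ratio of *Nvznf845* shRNA over scramble control CPM within each of the 5 pairs of libraries, for the targeted gene *znf845*, for *paxA* and for the 4 effector genes. Pair 3 (diamonds) lies lowest for *znf845* and *paxA* and highest for *ggt*, *dkk3-like3* and *Ngal*, and *CALM3-like* lies between -1.51 and -0.76 in all pairs.

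Pair 3, where *ggt*, *dkk3-like3* and *Ngal* fell least, was looked at library by library. Whether the smaller fall came from the batch or from a single library was not tested. Knockdown library 3 lay inside the range of the other 4 knockdown libraries for each of the 4 genes, whereas control library 3 was the lowest control for each. Relative to the mean of the other 4 controls, control library 3 stood at a log2 value of -0.87 for *Ngal*, -0.86 for *dkk3-like3*, -0.57 for *ggt* and -0.49 for *CALM3-like*. It was not low for the regulators, with 0.091 for *znf845* and 0.16 for *paxA*. The 5 cnidocyte collagen genes had a median of -0.033 there, with 3 of the 5 below the mean of the other controls, and all tested genes had a median of -0.056. The 803 genes called lower in the knockdown had a median of -0.35 in that library, and 601 of them were below the mean of the other controls. This library is one of those in which 10 genes took most of the counts, and the part of that in its low effector levels was not tested. The comparison was made after the values of the 4 genes were seen.

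**Figure D3:**
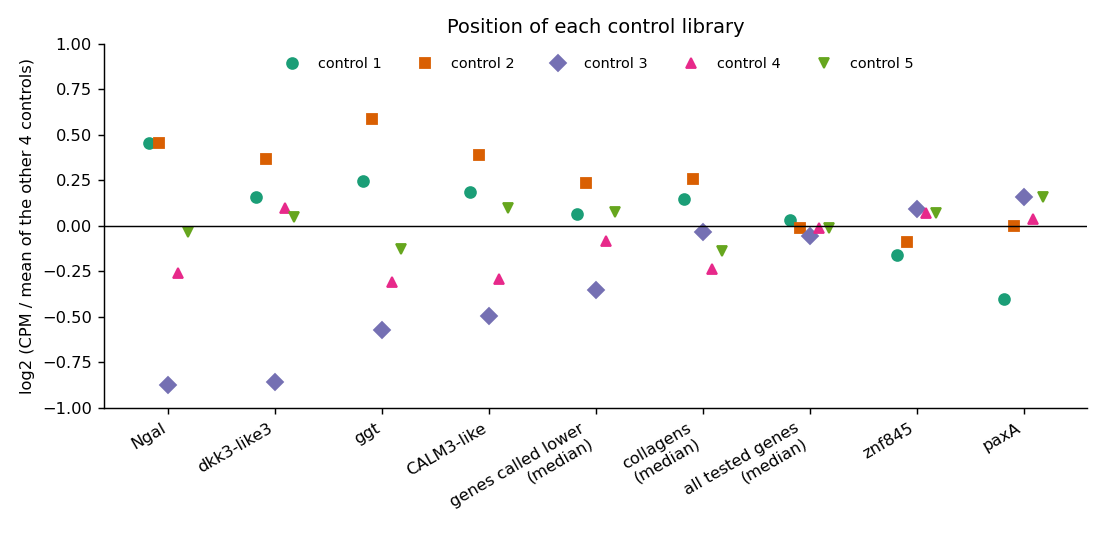
Position of each scramble control library, as the log2 ratio of its CPM to the mean of the other 4 control libraries, for single genes and as medians for the genes called lower, the collagens and all tested genes. Control library 3 (diamonds) is the lowest for the 4 effector genes, between -0.87 and -0.49, and lies near 0 for the collagen median and for all tested genes.

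The coefficient of variation over control libraries was 28.8% for *Ngal*, 25.7% for *ggt*, 23.5% for *dkk3-like3* and 19.9% for *CALM3-like*, where counting alone would give 1.31%, 1.47%, 6.14% and 7.66%. Genes of similar level had a median of 17.7% for *Ngal*, 17.5% for *ggt*, 18.6% for *dkk3-like3* and 20.5% for *CALM3-like*, where similar means a control mean within 2-fold. The controls thus spread more than this median for the first 3 genes and not for *CALM3-like*. Over knockdown libraries it was 13.2% for *Ngal*, above the 6.20% of counting. For the other 3 genes it was 9.28% (*ggt*), 25.8% (*dkk3-like3*) and 10.1% (*CALM3-like*), at or below the 10.2%, 31.2% and 12.9% of counting alone. Differences between single knockdown libraries were thus not detectable at this depth for *ggt*, *dkk3-like3* and *CALM3-like*.

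Levels per length set the genes in order. In knockdown libraries *Ngal* averaged 10.1 ± 3.57 TPM, *ggt* 3.55 ± 1.31 TPM, *CALM3-like* 2.02 ± 0.799 TPM and *dkk3-like3* 0.726 ± 0.336 TPM, against control levels of 206 ± 74.9 TPM for *Ngal*, 147 ± 51.9 TPM for *ggt*, 4.73 ± 1.57 TPM for *CALM3-like* and 16.6 ± 6.37 TPM for *dkk3-like3* (SD, n = 5 each). *dkk3-like3* and *CALM3-like* therefore changed places, with *CALM3-like* above *dkk3-like3* in every knockdown library and below it in every control library. *Ngal* stayed above *ggt* in all 10 libraries, although the ranges of these 2 genes across libraries overlapped in both groups. By mean TPM, *Ngal* ranked 8616 in the knockdown and 496 in the control among 24520 genes, and *ggt* ranked 12504 in the knockdown and 714 in the control. *dkk3-like3* ranked 17622 in the knockdown and 6526 in the control, and *CALM3-like* 14349 in the knockdown and 12011 in the control.

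The make-up of the group shifted with these changes. Of the summed TPM of the 4 genes, *CALM3-like* took 12.1% ± 1.43 in knockdown libraries and 1.29% ± 0.128 in control libraries (SD, n = 5 each). *ggt* took 21.8% ± 3.52 in the knockdown and 39.8% ± 2.73 in the control. *Ngal* took 61.7% ± 3.49 in the knockdown and 54.6% ± 2.66 in the control, and *dkk3-like3* 4.39% ± 0.891 in the knockdown and 4.40% ± 0.572 in the control.

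Whether the genes changed by unequal amounts was tested on ratios of 2 genes within a library, which need no scaling between libraries. All 6 pairs of genes were compared by an exact 2-sided permutation test over the 252 ways to split the 10 libraries, whose smallest possible p is 0.00794, and p-values were adjusted over the 6 pairs. This test does not use the pairing of the libraries. In the paired form, with exact sign flips of the 5 within-pair differences as a replicate block, none of the differences called below was called. Each had an adjusted p of 0.075 there, from the smallest p of 0.0625 that 5 pairs allow. In the unpaired test *CALM3-like* changed less than each other gene. The log2 change of the other gene less that of *CALM3-like* was -3.06 for *Ngal* (95% interval -3.39 to -2.74), -3.19 for *dkk3-like3* (-3.63 to -2.73) and -4.11 for *ggt* (-4.45 to -3.83). Each of these differences had an exact permutation adjusted p of 0.0119. As ratios these are 8.35-fold, 9.13-fold and 17.3-fold, and each held the same sign in 5 of 5 pairs of libraries.

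In the same unpaired test *ggt* also changed more than *Ngal*. The ratio of *ggt* to *Ngal* counts had a mean log2 of -1.42 ± 0.301 in knockdown libraries and -0.37 ± 0.168 in control libraries (SD), a difference of -1.05 (95% interval -1.38 to -0.66, n = 5 each, exact permutation adjusted p = 0.0119) with no overlap between the groups. The fall of *ggt* was also larger than that of *dkk3-like3*, with a difference in log2 change of -0.92 (-1.40 to -0.42, exact permutation adjusted p = 0.0190) and the groups just overlapping. That last call was lost without pair 1, 2 or 3 (exact permutation adjusted p = 0.0686 in each case, at differences of -0.89, -0.74 and -0.85). Between *dkk3-like3* and *Ngal* no difference was detected, at -0.13 with a 95% interval of -0.46 to 0.20 (exact permutation adjusted p = 0.397). That interval leaves room for a change up to 0.46 larger or 0.20 smaller in *dkk3-like3*, and does not show that the genes changed alike.

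**Figure D4:**
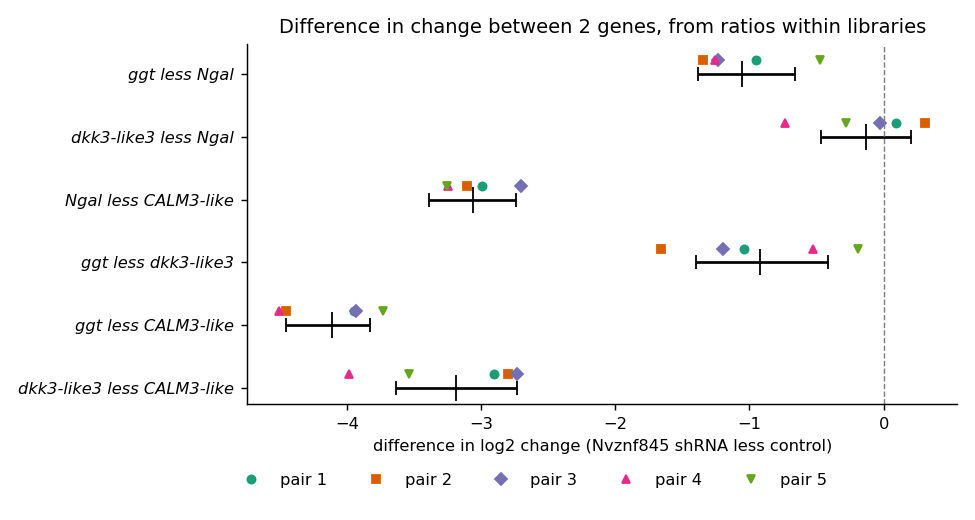
Difference in log2 change between 2 effector genes (*Nvznf845* shRNA less scramble control, first-named gene less second), for all 6 pairs of genes. Black bars are the mean difference and its 95% interval from the exact permutation test, and coloured markers are the 5 pairs of libraries. The interval crosses 0 for *dkk3-like3* less *Ngal*, and the 3 differences to *CALM3-like* lie between -4.11 and -3.06.

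The other published cnidocyte genes were described by class from the study's list, on which regulation by *Nvznf845* was again marked from these samples. Leaving out *znf845* and the 4 effector genes, 33 were listed and 29 tested, of which 20 were called lower. Their median log2 fold change was -3.41. All 5 collagen genes, which encode the minicollagens and related proteins of the capsule wall, were called lower, with log2 fold changes of -7.92 to -3.41. Of the genes with toxin or NEP names (nematocyst-expressed proteins), 2 of 2 tested were lower, and 6 of 7 tested genes with other names were lower. Of 15 transcription factor genes, 7 were lower. *ggt*, *dkk3-like3* and *Ngal* lay inside the range of the collagens, and *CALM3-like* lay above it. These differences between classes were not tested.

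**Figure D5:**
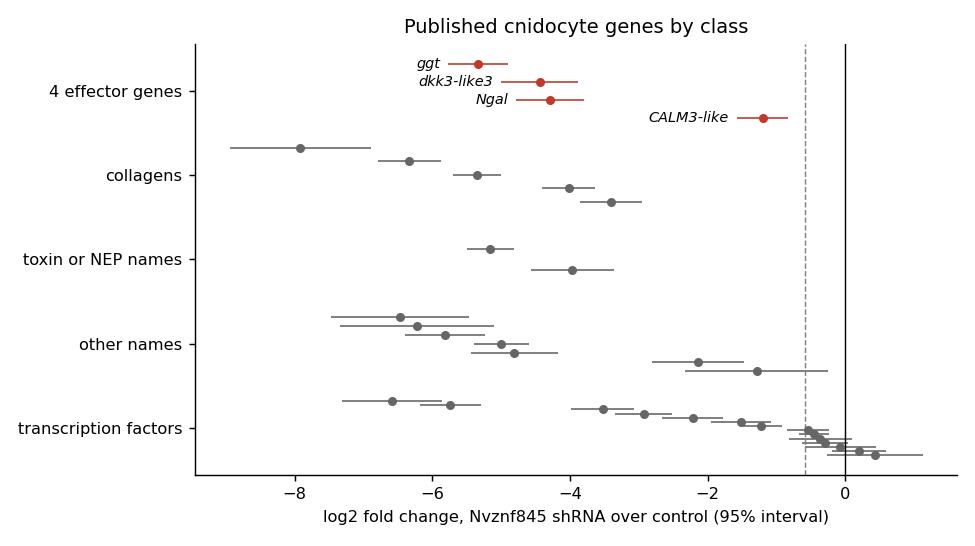
Log2 fold change of *Nvznf845* shRNA over scramble control with 95% intervals for the tested published cnidocyte genes, by class, with the 4 effector genes in red. One tested transcription factor gene is not drawn, and the dashed line is the limit of a 1.5-fold fall. *ggt*, *dkk3-like3* and *Ngal* lie among the collagens, between -5.33 and -4.29, and *CALM3-like* at -1.20 is the nearest of the 4 to 0.

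Genes whose numbers lie within 3 of each effector gene were also examined. Whether gene numbers follow chromosomal order was not checked. Over all tested genes, 803 of 19001 (4.23%) were called lower. Around *Ngal*, 1 of 3 tested genes was called lower. This was NV2.5199, with 126, 80, 0, 21 and 56 counts in knockdown libraries against 4022, 4417, 2286, 3418 and 4367 counts in control libraries. Its log2 fold change was -5.94 (SE 0.73, edgeR adjusted p = 2.35e-04), and like the 4 effector genes it was lowest among the controls in library 3. NV2.5198 was too low to be tested, at 3 summed counts in the knockdown and 147 in the control.

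Around *ggt*, 1 of 5 tested genes was called lower. This was NV2.1924, with 1, 3, 4, 9 and 4 counts in knockdown libraries against 258, 315, 162, 222 and 330 counts in control libraries (log2 fold change -5.75, SE 0.44, edgeR adjusted p = 1.84e-06). Around *dkk3-like3* 0 of 6 tested genes and around *CALM3-like* 0 of 4 were called by edgeR, with log2 fold changes of -0.74 to 0.82 around *dkk3-like3* and -0.19 to 0.17 around *CALM3-like*. At an unadjusted edgeR p under 0.05 the counts were 2 of 3 around *Ngal* and 1 of 5 around *ggt*. They were 1 of 6 around *dkk3-like3* and 0 of 4 around *CALM3-like*. In the same order, DESeq2 called 1 of 3, 1 of 5, 1 of 6 (NV2.10136) and 0 of 4. By these rules the share of all genes, in either direction, was not counted. NV2.10136 had 2.60 CPM in the knockdown and 1.46 CPM in the control, a log2 fold change of 0.82 (edgeR adjusted p = 0.0571). Estimated counts fell on whole numbers (within 1e-06) in 2 of 10 libraries for *Ngal*, 2 of 10 for *ggt*, 6 of 10 for *dkk3-like3* and 0 of 10 for *CALM3-like*. The estimates thus included reads shared with other transcripts, and which transcripts these were was not examined.

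The genes most like each effector gene were found by the correlation of log2 CPM over the 10 libraries, among 16804 genes with a mean of at least 1 CPM. These correlations describe mostly the distance between the 2 groups. NV2.9862, NV2.23668 and NV2.10004 were most like *Ngal* (r of 0.999 for each). NV2.9862 had 2.56 ± 0.361 CPM in the knockdown and 22.6 ± 4.57 CPM in the control, and NV2.23668 had 2.96 ± 0.321 CPM in the knockdown and 51.4 ± 14.4 CPM in the control (SD, n = 5 each). NV2.25130, NV2.22004 and NV2.118 were most like *ggt* (r of 0.999, 0.998 and 0.998). For *dkk3-like3* these were NV2.6716, NV2.5136 and NV2.24598 (r of 0.999, 0.998 and 0.998). NV2.6716 was the more abundant in counts, with 5.51 ± 1.15 CPM in the knockdown and 122 ± 28.3 CPM in the control.

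*CALM3-like* had less close companions, NV2.11163, NV2.10282 and NV2.6685 (r of 0.990, 0.987 and 0.986). Genes with r of at least 0.95 numbered 250 for *CALM3-like*, against 499 for *Ngal*, 503 for *ggt* and 496 for *dkk3-like3*. Among the 4 genes themselves, *Ngal* and *dkk3-like3* were closest (r = 0.996), and *ggt* and *CALM3-like* were farthest apart (r = 0.960). The files name these companions by number alone, so no role can be given to them.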

How the data were processed

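Per the labels and the study's methods, total RNA (RIN of at least 8) was isolated, and the sequencing provider prepared mRNA libraries, sequenced them as paired-end reads and trimmed the reads. The authors quantified them with Salmon against the Nvec200 gene models on the Galaxy platform. Versions: not given in the sources used here. For each of 35819 transcripts, the deposited values are estimated counts, TPM, length and effective length in bases, the last an "other" unit. Estimated counts were summed per gene and rounded. Low genes were removed with filterByExpr (minimum count 10), libraries were scaled by TMM, and condition was tested with edgeR 4.0.16 (R 4.3.3, robust quasi-likelihood fit, Benjamini-Hochberg adjustment over all tested genes), with the study's limits of 0.05 and 0.585. Fold changes are knockdown over control. The scripts were tested on simulated data. Ratios between genes used a pseudocount of 0.5 counts and exact permutations computed with numpy 2.4.6. Alternatives used DESeq2 1.42.0 and limma 3.58.1, with a pseudocount of 1 for TPM.

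The 4 genes, the gene lists and the tests were chosen with earlier results of these data known. Genes named are the 4 effector genes, *znf845*, *paxA*, the 3 genes most correlated with each effector gene, and called genes within 3 gene numbers. *ncol3*, NV2.5198 and NV2.10136 were named after their values were seen. Markers of other cell types were not used here, since the files give gene numbers without names.

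Replicate numbers pair a knockdown with a control library of the same labelled batch, and the methods call the replicates paired. The correlation of 2 same-numbered libraries, each taken as its difference from its own group mean, was 0.559, -0.0859, 0.180, 0.192 and 0.691 for pairs 1 to 5. No 2 libraries agreed within sampling noise. Each library is a pool of embryos. Whether pools came from separate spawnings is not stated in the labels or methods, so p-values measure the spread between these libraries. Precision of low genes is limited by counts, and counting errors cover sampling of reads alone.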

Additional observations from a re-analysis of the deposited data

How the results depend on the processing

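*Ngal*, *ggt* and *dkk3-like3* kept their call in 28 of 28 alternatives and *CALM3-like* in 26 of 28. The 2 that lost it were library size alone (log2 fold change -1.25, edgeR adjusted p = 0.201) and log2(TPM + 1) with limma (-0.92, adjusted p = 0.0709), so 3 of 4 genes were called there. With the replicate block, all 4 calls were kept, at -4.25, -5.31, -4.48 and -1.20 for *Ngal*, *ggt*, *dkk3-like3* and *CALM3-like* (largest edgeR adjusted p = 0.00328, for *CALM3-like*). With 1 library or 1 pair left out, log2 fold changes ranged from -4.44 to -4.19 for *Ngal*, -5.46 to -5.17 for *ggt*, -4.60 to -4.30 for *dkk3-like3* and -1.31 to -1.12 for *CALM3-like*. Pairs 4 and 5 alone gave values outside these ranges for *dkk3-like3* (-4.90) and *CALM3-like* (-1.09). Genes called lower numbered 660 to 960, against 803. Of the 6 pairs of genes, 5 changed unequally. In the paired form with a replicate block (exact sign flips) the count was 0, since the smallest possible p is 0.0625. With 1 pair of libraries left out the count was 4 to 5, and the difference of *dkk3-like3* less *Ngal*, never past the threshold, ranged from -0.24 to 0.022. On the log2(TPM + 1) scale the log2 fold change of *dkk3-like3* was -3.26, where the added 1 is larger than its knockdown mean of 0.726 TPM. Depth limits its knockdown values, which rest on 6 to 19 counts per library.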
